A study of Mus musculus with 20 samples.

Results

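The genes examined were the mouse Clec genes, which encode C-type lectin and C-type lectin-like proteins. Members were taken by name from the table of gene counts: every symbol made of Clec, a number and a letter (with or without a further number), except Clec9a and Clec10a. The pattern matched 33 symbols, and the 2 exclusions left 31 members among 46983 genes. The choice used names only, but it was made with earlier results of these data known.

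The material came from tumours grown for 2 weeks after KPC murine pancreatic cancer cells had been injected into the pancreas of C57BL/6 mice that were either wild type (WT) or IL33-/- (called IL33KO), with 5 hosts of each genotype and no treatment. From each host genotype there were 5 libraries of tumour-infiltrating leukocytes, enriched as CD45+ cells on magnetic beads, and 5 libraries of bulk tumour, which make 20 libraries in 4 groups. The implanted KPC cells were the same kind in both host genotypes, so the IL33 genotype is that of the host and not of the tumour cells. The labels do not tie libraries to mice or say whether sorted and bulk libraries share tumours, and the p-values reflect only how much these libraries vary, which may be technical in part.

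C-type lectin receptors are surface proteins that bind sugars, lipids or proteins through a fold named for its calcium-dependent sugar binding. On macrophages, monocytes, neutrophils and dendritic cells, the activating receptors signal through an ITAM-type tyrosine motif, either their own or that of the adaptors Fcer1g and Tyrobp, to the kinase Syk and the scaffold Card9, while the inhibitory receptors carry an ITIM motif that recruits phosphatases. Other family members are ligands for NK cell receptors, proteins of platelets and endothelium, or secreted proteins of connective tissue.

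All 31 members had a position in GENCODE M21 (mm10, the mouse build GRCm38), and 24 of them lie on chromosome 6. A block of 9 members runs from Clec4a1 to Clec4e (chr6:122921848-123289870), and a block of 12 runs from Clec2j to Clec7a (chr6:128652416-129472779). Clec4d, on the plus strand, and Clec4e, on the minus strand, converge with 6523 bases between their ends. The annotation lists Clec2j as an unprocessed pseudogene, Clec2f as a transcribed unprocessed pseudogene and Clec7a as a polymorphic pseudogene. Exons of Clec1b overlap those of Clec9a on the same strand, and exons of Clec4g overlap those of a predicted gene on the opposite strand. Counts of Clec1b and Clec4g are therefore uncertain, as are those of Clec4a2, Clec4b2, Clec2g, Clec2i, Clec2j and Clec16a, whose spans overlap other annotated genes outside the exons, since the strand setting of the counting is not given in the sources used here. The Clec4a, Clec4b and Clec2 genes are close copies of each other, and the division of reads between such copies is uncertain.

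RefSeq (GRCm38.p6) gave a promoter window for 24 of the 31 members. The sequences below are the 250 bases before the annotated start of 5 receptors that were high in leukocytes and much lower in bulk tumour, each written 5′ to 3′ on the strand of its gene and ending just before the start. They are Clec7a (chr6:129472780-129473029, minus strand), Clec4e (chr6:123289872-123290121, minus strand), Clec4d (chr6:123261857-123262106, plus strand), Clec5a (chr6:40585806-40586055, minus strand) and Clec12a (chr6:129349994-129350243, plus strand). The starts are those of RefSeq. GENCODE M21 gives the same start for Clec7a and differs for the others. It begins Clec12a at 129342691, so that the Clec12a window lies inside the gene, and begins Clec5a at 40585821, inside the Clec5a window. Capitals mark GAGGAAG, the core bound by the myeloid factor PU.1 and its relatives, and TATAAA, the TATA box, on either strand, so that GAGGAAG also shows as CTTCCTC and TATAAA as TTTATA.
Clec7a: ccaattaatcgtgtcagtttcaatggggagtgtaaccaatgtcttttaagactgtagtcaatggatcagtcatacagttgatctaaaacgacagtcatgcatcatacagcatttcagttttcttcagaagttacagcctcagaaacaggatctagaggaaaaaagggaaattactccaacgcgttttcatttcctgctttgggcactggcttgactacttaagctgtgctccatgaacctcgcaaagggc
Clec4e: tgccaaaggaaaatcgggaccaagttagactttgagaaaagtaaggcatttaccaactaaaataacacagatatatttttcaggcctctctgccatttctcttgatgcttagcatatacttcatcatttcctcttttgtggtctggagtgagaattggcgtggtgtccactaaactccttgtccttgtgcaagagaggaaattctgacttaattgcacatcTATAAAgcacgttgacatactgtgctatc
Clec4d: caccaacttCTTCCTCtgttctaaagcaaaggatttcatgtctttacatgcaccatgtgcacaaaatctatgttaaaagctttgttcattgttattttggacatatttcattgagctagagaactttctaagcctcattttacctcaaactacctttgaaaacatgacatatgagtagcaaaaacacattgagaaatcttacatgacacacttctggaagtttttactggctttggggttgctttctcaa
Clec5a: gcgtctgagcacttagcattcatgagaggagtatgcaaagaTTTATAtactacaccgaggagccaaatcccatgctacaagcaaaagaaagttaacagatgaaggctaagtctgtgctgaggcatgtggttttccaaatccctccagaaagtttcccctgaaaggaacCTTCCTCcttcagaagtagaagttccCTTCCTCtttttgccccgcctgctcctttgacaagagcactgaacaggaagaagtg
Clec12a: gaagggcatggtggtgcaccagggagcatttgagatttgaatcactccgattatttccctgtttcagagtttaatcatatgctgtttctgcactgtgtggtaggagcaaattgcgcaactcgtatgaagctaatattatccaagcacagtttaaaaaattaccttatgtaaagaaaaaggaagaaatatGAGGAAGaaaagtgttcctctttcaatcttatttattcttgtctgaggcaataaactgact

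The motif search covered both strands of the same 250 bases in all 32851 RefSeq windows, with the first listed window taken for each member. The matches shown do not overlap each other. GAGGAAG was present in 10.6% of all windows and in 6 of the 24 members' windows (25.0%): Clec12a, Clec16a, Clec18a, Clec4a1, Clec4d and Clec5a. Counting the base before the RefSeq start as -1, it lay at -82 to -76 and again at -56 to -50 in Clec5a, at -61 to -55 in Clec12a and at -241 to -235 in Clec4d. TATAAA was present in 12.4% of all windows and in 6 members' windows (25.0%), and stood at -29 to -24 in Clec4e. GGGCGG, the GC box of many broadly used promoters, was in 32.7% of all windows and in 4 members' windows (16.7%), those of Clec11a, Clec16a, Clec2i and Clec2l. TGACTCA, the AP-1 site, was in 4.46% of all windows and in 1 member's window (4.17%), that of Clec2g. Such a match describes the letters of the window and is not evidence of a bound site.

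Each library held 51273064 to 80957402 counts in genes (median 59492518.5), and 3 counts corresponded to 0.0331 to 0.0677 CPM, the counts of a gene scaled to a common library size after TMM normalization for library composition. Il33 was counted in all the libraries labelled IL33KO (17.4 ± 4.61 CPM sorted and 46.5 ± 6.84 CPM bulk, against 12.8 ± 5.56 and 57.9 ± 5.16 CPM in WT; SD, n = 5), and counts per gene do not show which exons were read, so these values do not check the genotype labels. CD45 selection showed in the marker lists: the 10 pan-leukocyte genes summed to 7792.8 to 10499.6 CPM in sorted WT and 7873.4 to 9988.4 CPM in sorted IL33KO, against 614.0 to 1379.7 CPM in bulk WT and 722.9 to 1445.7 CPM in bulk IL33KO. Sorted libraries were not free of other cells, since the 8 tumour epithelial genes summed to 1077.3 to 2707.2 CPM in sorted WT and 1867.3 to 2866.9 CPM in sorted IL33KO. RNA of pancreatic acinar cells varied widely and was present in every sorted library. Its 8 genes summed to 720.4 to 4953.9 CPM in sorted WT and to 3008.6, 7995.6, 46190.5, 794.9 and 990.1 CPM in sorted IL33KO 1 to 5. In bulk WT 5 they summed to 9661.0 CPM, against 38.7 to 42.0 CPM in the other WT bulk libraries. The bulk IL33KO libraries held 31.8, 25.1, 1838.9, 32.9 and 174.6 CPM. In bulk samples, fewer cells of a type and less RNA per cell cannot be told apart.

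Clec7a (Dectin-1, the receptor for fungal beta-glucan) was the most abundant member in sorted leukocytes. Its level was 786, 711, 1659.5, 857 and 853 CPM in sorted WT libraries 1 to 5, and 554, 999, 1109, 880.4 and 809 CPM in the sorted IL33KO libraries. Sorted WT 3 stood far above the other WT libraries. In bulk tumour Clec7a was at 51.4, 61.1, 89.5, 46.2 and 215 CPM in WT and at 118, 89.4, 90.0, 109.9 and 157 CPM in IL33KO, so every bulk library was below every sorted one. Clec7a made up 40.1% ± 6.30 of the summed CPM of all 31 members in sorted WT and 40.9% ± 4.01 in sorted IL33KO (SD, n = 5). In bulk tumour its share was 27.6% ± 9.27 in WT and 32.7% ± 4.10 in IL33KO. The whole family summed to 2366 ± 521 CPM in sorted WT libraries and 2105 ± 358 CPM in sorted IL33KO libraries, and in bulk tumour to 306 ± 113 CPM for WT and 343 ± 55.4 CPM for IL33KO.

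The family spanned several orders of magnitude. In sorted WT libraries 6 members had a mean of at least 100 CPM (Clec7a, Clec4n, Clec12a, Clec4e, Clec5a and Clec4d), 5 lay between 10 and 100 CPM, 8 between 1 and 10 CPM, and 12 were below 1 CPM. In bulk WT no member reached a mean of 100 CPM, and 16 were below 1 CPM. Per kilobase of exon, the scale on which different genes can be compared, Clec7a (369 CPM per kilobase) and Clec4n (308) led in sorted WT, followed by Clec4d (85.8), Clec4a3 (69.5) and Clec4a1 (53.8). In bulk WT the order was Clec2d (58.1 CPM per kilobase), Clec7a (35.1), Clec4n (33.3) and Clec2f (13.7), and these 4 came in the same order in bulk IL33KO. At the other end, Clec3a, a cartilage gene, had 0 counts in all 20 libraries, which allows up to 3 counts in each. Clec2j had 2 counts and Clec18a 4 counts over all libraries. Clec4f, a marker of Kupffer cells in the liver, had 16 counts, of which 11 were in bulk IL33KO 4. These 4 members did not pass the filter on low counts.

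**Figure D1:**
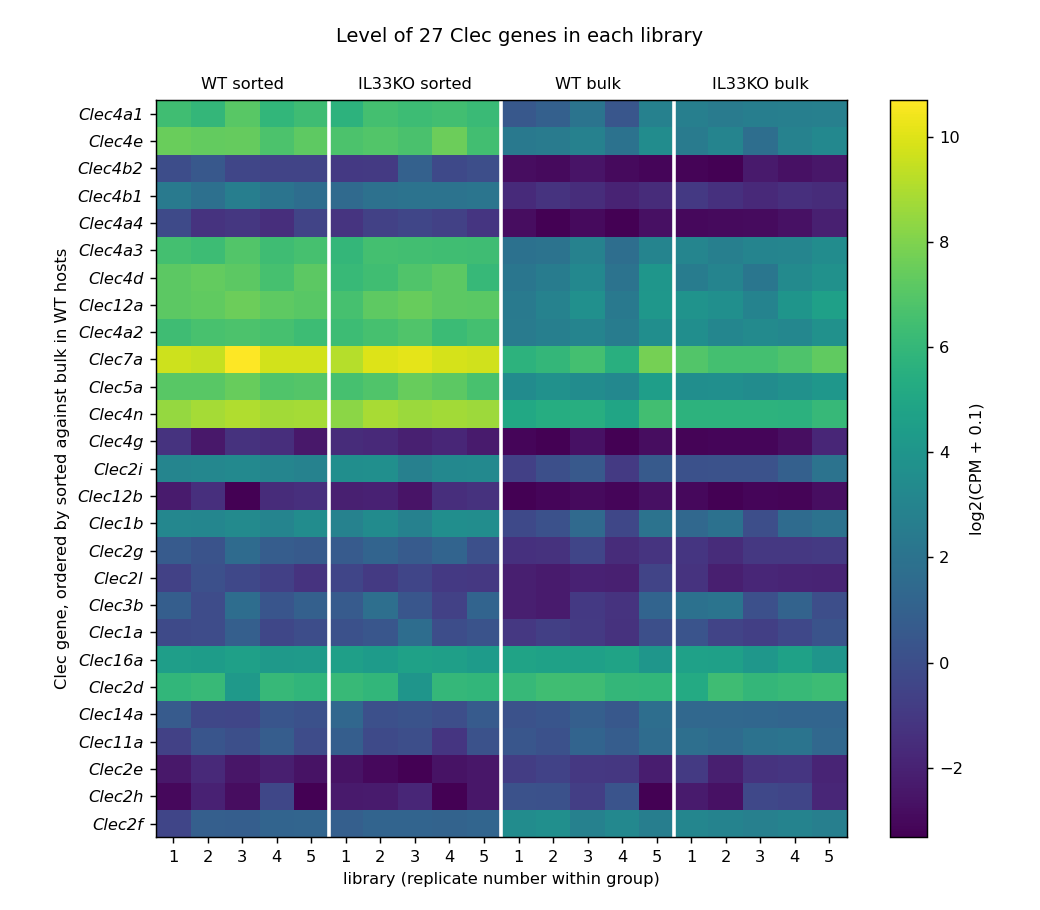
Level of the 27 tested Clec genes in each of the 20 libraries as log2(CPM + 0.1), with genes in rows ordered by their sorted against bulk difference in WT hosts and libraries in columns by group and replicate number. Clec7a is the brightest row in the sorted libraries, the rows from Clec4a1 to Clec4n darken from sorted to bulk, and Clec2d and Clec16a keep a similar colour across groups except for Clec2d in the sorted libraries numbered 3.

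The first comparison asked which members are carried by the CD45+ cells and which by the rest of the tumour. Of the 27 members tested, 19 were higher and 2 lower in sorted leukocytes than in bulk tumour of WT hosts, and 18 were higher and 4 lower in IL33KO hosts (edgeR, Benjamini-Hochberg adjusted p below 0.05). Over all 18145 genes tested, 33.7% were called higher and 34.3% lower in WT hosts, and 31.3% and 31.7% in IL33KO hosts. The median log2 difference of the members was 3.19 in WT and 2.52 in IL33KO hosts, beside -0.003 and 0.017 over all genes. Groups did not overlap for 16 members higher and 1 lower in WT hosts (26.1% and 24.3% of all genes) and for 17 higher and 3 lower in IL33KO hosts (23.7% and 25.0%). The pan-leukocyte list, which shows how far the selection enriched leukocyte RNA as a whole, had a median of 3.42 in WT and 3.14 in IL33KO hosts, and 9 members lay above it in each. The 27 members passed the filter on low counts in a fit of all 20 libraries, and low members that passed through the group where they are high had to differ. Clec4a4, Clec4b2, Clec4g and Clec12b are among the 19 and the 18, and held 0 to 5 counts in each bulk WT library and 0 to 13 in each bulk IL33KO library. Their fitted fold changes depend on the prior count that edgeR adds, so no fold is given for them, and 15 and 14 members were higher beside them. Of these low members, Clec4a4, Clec4b2 and Clec4g are also among the 16 without overlap, and Clec4a4, Clec4b2 and Clec12b among the 17. Clec2e, which passed the filter through its bulk libraries, is among the 2 and the 4 called lower. It is also among the 3 lower without overlap in IL33KO hosts. For all these members the filter set the outcome, so they add no support to the counts.

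**Figure D2:**
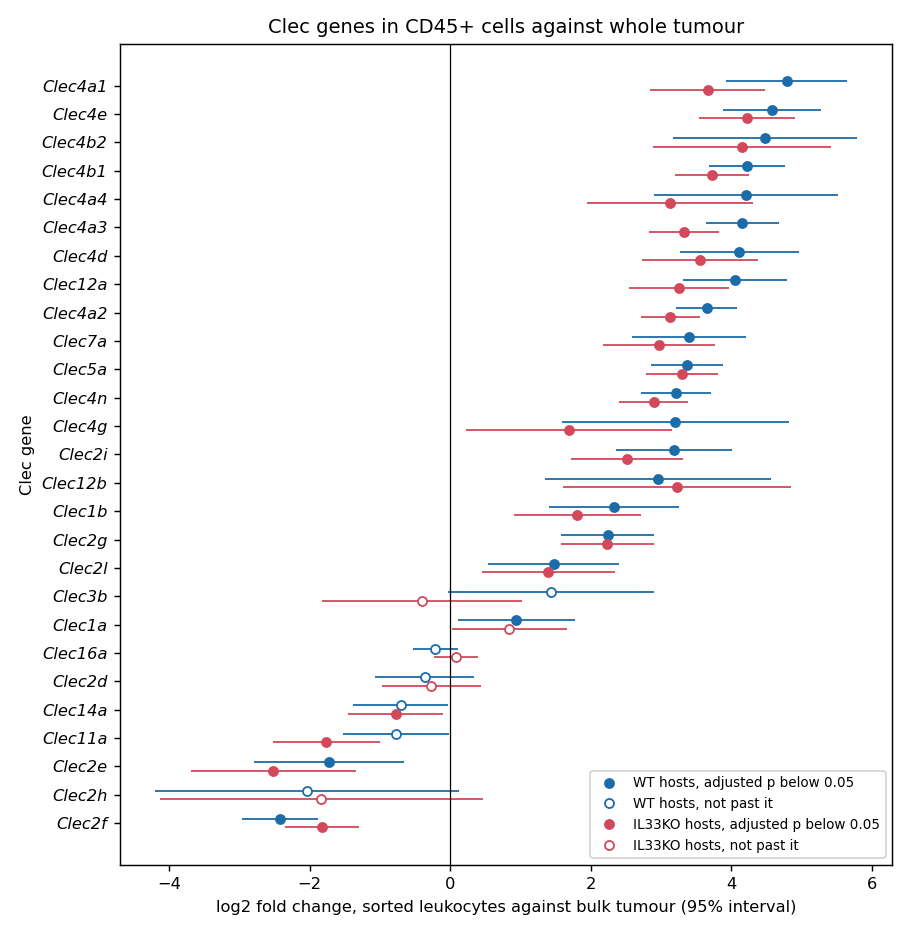
Log2 fold change of sorted leukocytes against bulk tumour (horizontal axis) with its 95% interval for 27 Clec genes, in WT hosts (blue) and IL33KO hosts (red); filled points passed the adjusted p threshold of 0.05. Most points lie to the right, from Clec4a1 at 4.79 in WT downwards, the intervals of Clec16a and Clec2d include 0, and Clec2f, Clec2e and Clec11a lie to the left. The points of Clec4a4, Clec4b2, Clec4g and Clec12b rest on few bulk counts, and those of Clec2e and Clec2h on few sorted counts, and these give no size of fold.

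Among the activating receptors, Clec7a was 10.5-fold higher in sorted than in bulk WT libraries (log2 3.40, SE 0.39, edgeR adjusted p = 3.15e-07) and 7.84-fold higher in IL33KO hosts (log2 2.97, SE 0.38, adjusted p = 1.87e-06). Clec4n (Dectin-2, which binds mannose-rich sugars and signals through Fcer1g) was at 352, 444, 525, 424 and 445 CPM in sorted WT and at 33.6, 41.5, 44.1, 29.8 and 87.7 CPM in bulk WT. Its sorted IL33KO libraries held 308, 462, 379, 429 and 399.5 CPM and the bulk ones 50.4, 51.5, 51.4, 49.2 and 67.6 CPM. Sorted and bulk values did not overlap in either host genotype, and bulk WT 5 was the highest bulk library. On the log2 scale Clec4n was higher by 3.22 (SE 0.24, edgeR adjusted p = 1.29e-09) in WT and 2.90 (SE 0.24, adjusted p = 6.68e-09) in IL33KO hosts.

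Clec4e (Mincle) and Clec4d (MCL, its partner at the cell surface) bind mycobacterial glycolipids, and Mincle also senses a product of dead cells, Sap130. Clec4e was at 183, 160.1, 166, 107 and 146 CPM in sorted WT against 4.91, 5.45, 6.87, 3.81 and 10.96 CPM in bulk WT. The groups were far apart, and the difference was 24.0-fold (log2 4.58, SE 0.33, edgeR adjusted p = 9.45e-10), and in IL33KO hosts 18.7-fold (log2 4.23, SE 0.33, adjusted p = 3.47e-09). Clec4d was at 145, 158, 144, 93.6 and 144 CPM in sorted WT and at 4.49, 5.61, 9.19, 3.88 and 16.6 CPM in bulk WT. Its difference was 17.3-fold in WT (log2 4.12, SE 0.40, adjusted p = 4.54e-08) and 11.8-fold in IL33KO hosts (log2 3.56, SE 0.39, adjusted p = 3.22e-07). In bulk IL33KO Clec4e was at 5.31, 7.87, 3.15, 6.94 and 9.34 CPM and Clec4d at 5.63, 7.84, 4.49, 10.1 and 13.2 CPM, within or just outside the range of the WT bulk libraries. Clec5a (MDL-1, which pairs with Tyrobp) was at 132, 135, 176, 114 and 121 CPM in sorted WT and 10.3, 12.9, 10.9, 9.23 and 22.6 CPM in bulk WT. Its sorted IL33KO libraries held 95.01, 115, 173, 145 and 96.8 CPM and its bulk IL33KO libraries 11.7, 11.9, 10.6, 13.2 and 17.0 CPM, and sorted and bulk values stayed apart in both host genotypes. It was 10.4-fold higher in sorted WT (log2 3.37, SE 0.25, adjusted p = 9.74e-10) and 9.88-fold higher in sorted IL33KO libraries (log2 3.30, SE 0.25, adjusted p = 2.11e-09). Clec4b1, a relative that also couples to Fcer1g, was low, at 4.36 ± 1.24 CPM in sorted WT and 0.233 ± 0.0570 CPM in bulk WT, and differed by log2 4.23 (SE 0.26, adjusted p = 1.18e-10). Its neighbour Clec4b2 stayed at 0.598 to 1.31 CPM in sorted WT, which was 28 to 62 counts, against 1 to 5 counts in bulk WT. Clec1b (CLEC-2, the podoplanin receptor of platelets, which carries its own ITAM-type motif) was at 9.12 ± 1.09 CPM in sorted and 1.81 ± 1.44 CPM in bulk WT (log2 2.34, SE 0.44, adjusted p = 0.000119). The 8 platelet genes summed to 103.2 to 142.1 CPM in those sorted libraries and 10.5 to 36.5 CPM in bulk WT, with Treml1 at 0 in bulk WT 2, and their part in the Clec1b difference was not tested.

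Among the inhibitory receptors and their relatives, Clec12a (MICL, which carries an ITIM and binds uric acid crystals) was at 145, 156, 189.8, 149 and 134 CPM in sorted WT and at 95.8, 149, 175, 144 and 137 CPM in sorted IL33KO. Bulk values were 5.22, 6.98, 12.4, 5.02 and 17.2 CPM in WT and 14.8, 12.1, 7.59, 15.9 and 24.2 CPM in IL33KO. No sorted library came near the bulk libraries, and Clec12a was higher in sorted ones by log2 4.05 (SE 0.35, edgeR adjusted p = 9.08e-09) in WT and 3.26 (SE 0.34, adjusted p = 1.43e-07) in IL33KO hosts. Clec4a1, Clec4a2, Clec4a3 and Clec4a4 are mouse relatives of the dendritic cell immunoreceptor DCIR, of which Clec4a2 and Clec4a4 carry an ITIM. Clec4a1 had the largest difference of the family in WT hosts, from 85.1, 62.7, 131, 59.2 and 81.2 CPM in sorted to 1.32, 1.83, 4.15, 1.23 and 6.66 CPM in bulk libraries (27.6-fold, log2 4.79, SE 0.41, adjusted p = 8.37e-09). In IL33KO hosts it stood at 52.0, 91.5, 77.5, 87.0 and 71.7 CPM in sorted and 6.20, 5.47, 6.06, 6.32 and 6.43 CPM in bulk libraries (12.7-fold, log2 3.66, SE 0.39, adjusted p = 1.89e-07). The sorted values of the host genotypes overlapped, while bulk WT 1 to 4 lay below every bulk IL33KO library. Clec4a2 was at 79.6, 97.1, 108, 96.1 and 78.7 CPM in sorted WT and 5.32, 6.19, 8.02, 5.64 and 11.6 CPM in bulk WT, and Clec4a3 at 91.7, 77.4, 117, 82.6 and 93.0 CPM in sorted WT. Both were separated without overlap between sorted and bulk libraries of each host genotype. Clec4a2 differed by log2 3.65 (SE 0.21) in WT and 3.13 (SE 0.20) in IL33KO hosts, and Clec4a3 by 4.16 (SE 0.25) and 3.33 (SE 0.24). Clec4a4 was scarce, at 0.256 to 0.798 CPM in sorted WT and at most 0.0512 CPM in bulk WT. Clec12b, a further ITIM receptor, was at 0 to 0.276 CPM in sorted WT and at most 0.0512 CPM in bulk WT, where the groups overlapped through the sorted library at 0.

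**Figure D3:**
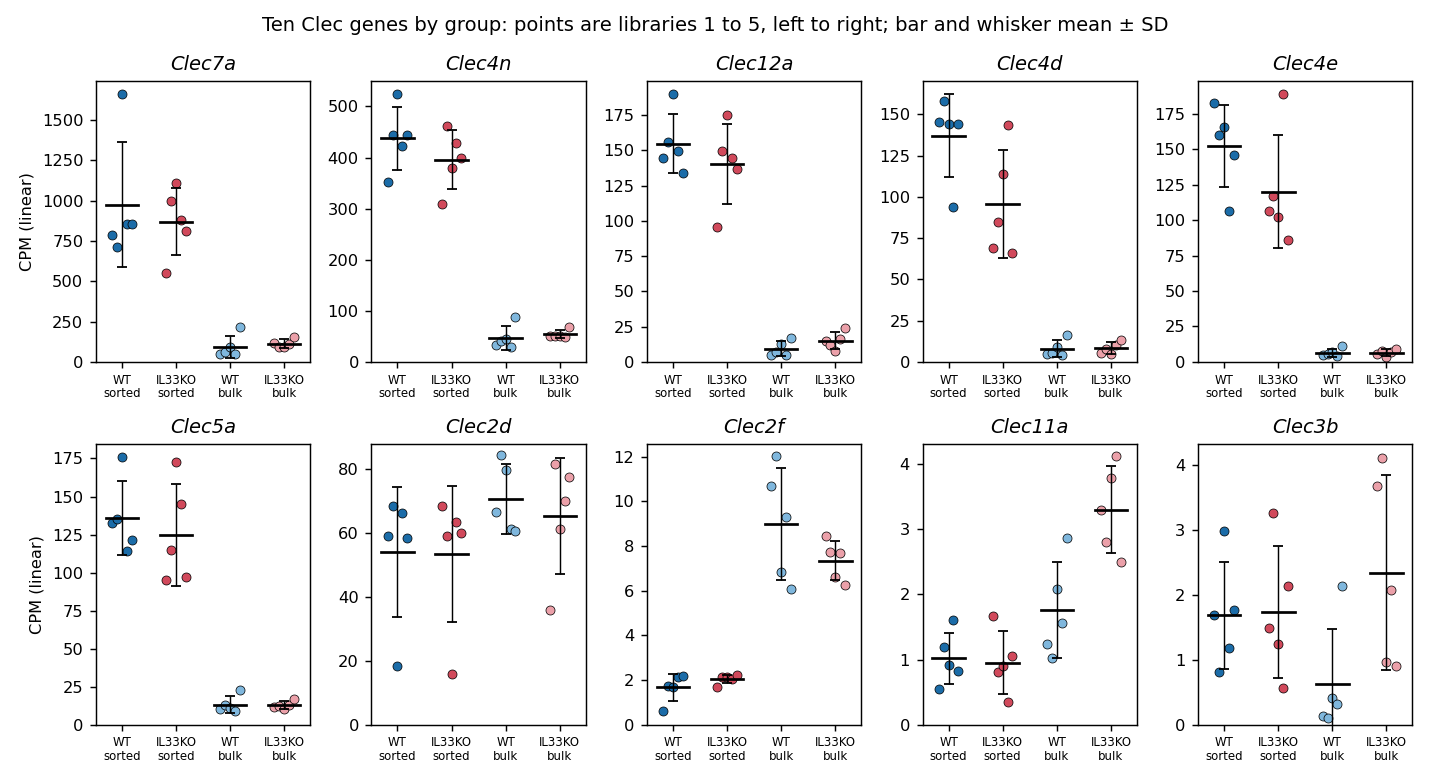
CPM on a linear axis that starts at 0 for 10 Clec genes, with each library as a point, libraries 1 to 5 from left to right in each group, and the mean ± SD as bar and whiskers. In the first 6 panels the sorted groups lie far above the bulk groups, Clec2d has 1 low library in each sorted group, Clec2f is higher in bulk, and Clec11a and Clec3b show the spread within bulk tumour.

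The Clec2 genes include the Clr proteins, ligands for the NKR-P1 (Klrb1) receptors of NK cells. Clec2d (Clr-b, the ligand by which healthy cells engage the inhibitory receptor Klrb1b) was at 59.1, 68.5, 18.5, 66.1 and 58.3 CPM in sorted WT and at 66.5, 84.4, 79.8, 61.2 and 60.7 CPM in bulk WT. In IL33KO hosts it was at 68.4, 59.0, 15.9, 63.5 and 59.8 CPM in sorted and 36.0, 81.5, 61.1, 69.8 and 77.4 CPM in bulk libraries. Both sorted libraries numbered 3 stood well below the rest of their groups, and otherwise sorted and bulk values overlapped. Clec2d did not pass the threshold in WT (log2 -0.37, SE 0.34, 95% interval -1.08 to 0.35, edgeR adjusted p = 0.349) or IL33KO hosts (log2 -0.27, SE 0.34, 95% interval -0.98 to 0.44, adjusted p = 0.509). It made up 25.2% ± 7.44 of the family sum in bulk WT and 2.48% ± 1.10 in sorted WT. Clec2f, annotated as a pseudogene, had the smallest p value among the members lower in sorted leukocytes. It was at 0.630, 1.72, 1.68, 2.11 and 2.17 CPM in sorted WT and at 10.7, 12.0, 6.83, 9.31 and 6.07 CPM in bulk WT, with no overlap, and was 5.34-fold lower in sorted libraries (log2 -2.42, SE 0.26, adjusted p = 1.25e-07). In IL33KO hosts it was at 1.70, 2.13, 2.12, 2.04 and 2.20 CPM in sorted and 8.43, 7.73, 6.59, 7.70 and 6.27 CPM in bulk libraries, again without overlap, and was 3.54-fold lower (log2 -1.82, SE 0.25, adjusted p = 4.58e-06). The 8 tumour epithelial genes were lower in the same direction, with a median log2 of -2.07 in WT and -1.93 in IL33KO hosts, and 7 and 8 of the 8 called lower. Their part in the Clec2f values was not tested.

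Of the other Clr genes, 2 were higher and 1 was lower in sorted leukocytes of both host genotypes. Clec2i (Clr-g) was at 8.43 ± 0.839 CPM in sorted and 0.929 ± 0.454 CPM in bulk WT (log2 3.19, SE 0.39, edgeR adjusted p = 8.51e-07), and Clec2g was at 1.10 to 2.79 CPM in sorted against 0.236 to 0.636 CPM in bulk WT (log2 2.24, SE 0.31, adjusted p = 4.12e-06). Both were also higher in sorted libraries of IL33KO hosts, by log2 2.52 and 2.24. Clec2e was called lower in sorted leukocytes of WT (edgeR adjusted p = 0.00567) and IL33KO hosts (adjusted p = 0.000735), from levels of 0.115 to 0.581 CPM in bulk WT. It held only 4, 10, 4, 6 and 3 counts in sorted WT and 3, 1, 0, 3 and 5 in sorted IL33KO. Clec2e passed the filter on low counts through its bulk libraries, where it is high, so no fold is given for it. Clec2h (Clr-f, known from gut epithelium) was at 1.04, 1.02, 0.493, 1.16 and 0 CPM in bulk WT and at 0.0210, 0.148, 0.0382, 0.683 and 0 CPM in sorted WT, where a 0 allows up to 3 counts. Bulk WT 5 and sorted WT 4 were out of step with their groups, and the difference did not pass (edgeR adjusted p = 0.0875). It passed as lower in sorted libraries without bulk WT 5 (adjusted p = 0.0262) or without sorted WT 4 (0.00801). Clec2h held 1, 7, 2, 32 and 0 counts in sorted WT and 5, 5, 8, 0 and 5 in sorted IL33KO. Like Clec2e, it passed the filter on low counts through its bulk libraries. No fold is therefore given for Clec2h, and its passing in those fits is no support for a difference.

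For members known from endothelium, several calls turned on single libraries. Clec14a (an endothelial protein that binds Mmrn2) was at 1.02 ± 0.354 CPM in sorted and 1.67 ± 0.842 CPM in bulk WT (log2 -0.71, SE 0.32, edgeR adjusted p = 0.0611), and at 1.35 ± 0.605 against 2.35 ± 0.144 CPM in IL33KO hosts (log2 -0.77, SE 0.32, adjusted p = 0.0430). The IL33KO call was lost when any of 9 of the 10 libraries was left out (adjusted p 0.0529 to 0.105; sorted 1 was the exception), and the WT difference passed without sorted 1, bulk 1 or bulk 2 (adjusted p 0.0303 to 0.0457). Clec1a (MelLec, found on endothelium and myeloid cells) was higher in sorted WT (log2 0.94, SE 0.40, adjusted p = 0.0428) and at log2 0.84 in IL33KO hosts (adjusted p = 0.0689). Its WT call was lost without sorted WT 3 or 5 or without bulk WT 1, 2, 3 or 4 (adjusted p 0.0514 to 0.161), without the filter on low counts (0.0582) and in a fit of the 10 WT libraries alone (0.0516), and the IL33KO difference passed without sorted IL33KO 4 or bulk IL33KO 1 (adjusted p 0.0442 and 0.0488). Clec4g (LSECtin, of liver sinusoidal endothelium) stayed at or under 0.315 CPM in every library. It held 15, 4, 16, 12 and 4 counts in sorted WT 1 to 5 against 1, 0, 4, 0 and 3 in bulk WT, and 12, 10, 6, 9 and 6 in sorted IL33KO against 1, 1, 1, 4 and 13 in bulk IL33KO. Its IL33KO call (edgeR adjusted p = 0.0414) was lost without the filter on low counts (0.0689) and without sorted IL33KO 1, 2 or 4 or bulk IL33KO 1, 2, 3 or 4 (adjusted p 0.0649 to 0.0957). Clec2l, known from brain, was at 0.319 to 0.954 CPM in sorted WT and was higher there than in bulk WT by log2 1.47 (SE 0.45, adjusted p = 0.00682). Bulk WT 1 to 4 held 0.0991 to 0.143 CPM, which was only 7 to 11 counts. Bulk WT 5 held 0.602 CPM (47 counts), inside the sorted range, so the groups overlapped.

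Among the secreted members, Clec11a (osteolectin, or stem cell growth factor) was at 0.546, 1.19, 0.917, 1.60 and 0.829 CPM in sorted WT and at 1.24, 1.02, 2.09, 1.57 and 2.87 CPM in bulk WT. In IL33KO hosts the sorted libraries held 1.67, 0.802, 0.902, 0.343 and 1.06 CPM and the bulk libraries 3.30, 2.81, 3.79, 4.13 and 2.49 CPM. Sorted and bulk overlapped in WT and did not in IL33KO hosts. Clec11a was lower in sorted libraries of IL33KO hosts (log2 -1.76, SE 0.37, edgeR adjusted p = 0.000366) and did not pass in WT (log2 -0.78, SE 0.36, adjusted p = 0.0629), where it passed without sorted WT 4, bulk WT 1 or bulk WT 2 (adjusted p 0.0263 to 0.0496). Clec3b (tetranectin, which binds plasminogen) was at 0.130, 0.0991, 0.402, 0.319 and 2.14 CPM in bulk WT and 1.68 ± 0.825 CPM in sorted WT (log2 1.44, SE 0.70, adjusted p = 0.0765). It passed in DESeq2 (adjusted p = 0.0447), limma voom (0.000360) and limma on the scaled table (0.00787), and in edgeR without bulk WT 5, where the log2 difference was 2.82 (adjusted p = 0.000466). In IL33KO hosts Clec3b differed by log2 -0.40 (adjusted p = 0.622). Clec16a, a regulator of autophagy and mitophagy with only distant likeness to lectins, was at 20.9 ± 2.28, 22.4 ± 2.37, 24.4 ± 4.91 and 21.6 ± 4.77 CPM in the sorted WT and IL33KO groups and the corresponding bulk groups, and passed in neither host genotype (log2 -0.21 and 0.08). Without bulk WT 5, Clec16a passed in WT hosts (log2 -0.32, adjusted p = 0.0410).

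The second comparison asked whether sorted leukocytes of IL33KO hosts differ from those of WT hosts. None of the 24 members tested passed (edgeR), and 2 of all 16731 genes did (0.012%). DESeq2 called 0 members and 3.38% of all genes, and limma voom, run with a quality weight for each sample, called 0 members and 2.35% of all genes. By unadjusted p below 0.05, edgeR had 1 member of 24 beside 12.9% of all genes, and no member had groups that did not overlap (3.7% of all genes). The members' log2 differences ran from -0.51 to 0.58 with a median of -0.03 (0.02 over all genes), 10 above and 14 below 0 (53.7% of all genes were above 0).

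Clec4d was the member with an unadjusted p below 0.05. Its sorted IL33KO libraries held 69.2, 85.0, 114, 143 and 66.2 CPM against the sorted WT values given above (137 ± 25.0 CPM; SD, n = 5), a mean of 95.5 ± 32.8 CPM. All 5 IL33KO libraries were below the WT median, but sorted WT 4 (93.6 CPM) lay within the IL33KO range. Its genotype difference came to log2 -0.51 (SE 0.22, 95% interval -0.996 to -0.019, unadjusted p = 0.0429, edgeR adjusted p = 0.374). Its neighbour Clec4e was at 106, 117, 102, 189 and 86.2 CPM in sorted IL33KO against 152 ± 28.7 CPM in sorted WT. Of the 5 IL33KO libraries, 4 were below the WT median and sorted IL33KO 4 was above all WT libraries (log2 -0.33, SE 0.21, 95% interval -0.79 to 0.13, adjusted p = 0.535).

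For the other activating and inhibitory receptors no difference passed. Clec7a was at log2 -0.14 (95% interval -0.67 to 0.40), a value that turned to 0.12 without sorted WT 3. Clec4n was at -0.13 (95% interval -0.40 to 0.14), Clec12a at -0.12 (-0.45 to 0.20) and Clec5a at -0.10 (-0.49 to 0.29). After Clec4d and Clec4e, the smallest p values belonged to Clec2i (8.25, 8.75, 9.61, 8.24 and 7.31 CPM in sorted WT and 11.8, 12.1, 6.56, 9.29 and 9.75 CPM in sorted IL33KO; log2 0.24, edgeR adjusted p = 0.544), Clec1a (0.58, 0.576), Clec4a3 (-0.16, 0.645), Clec14a (0.42, 0.650) and Clec16a (0.12, 0.661). Clec1a reached 3.04 CPM in sorted IL33KO 3 and 1.76 CPM in sorted WT 3, against 0.705 to 1.25 CPM in the other 8 sorted libraries.

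The third comparison asked the same of bulk tumour. None of 23 members tested passed in edgeR or DESeq2, which called 0 of 17258 genes (0.0%) and 50 genes (0.29%). By unadjusted p below 0.05, edgeR had 4 members of 23 beside 6.36% of all genes: Clec11a, Clec4a3, Clec3b and Clec4a1. No member's groups were free of overlap (0.672% of all genes). The members' median log2 difference was 0.23 (0.01 over all genes), with 14 above and 9 below 0 (51.2% of all genes were above 0).

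Clec4a1, from the values given above, had a log2 difference of 0.98 (SE 0.44, 95% interval 0.02 to 1.95, edgeR adjusted p = 0.724), with all 5 IL33KO libraries above the WT median and bulk WT 5 above all of them. Clec4a3 was at 3.67, 3.99, 7.28, 3.14 and 7.97 CPM in bulk WT and at 8.11, 6.40, 7.98, 8.15 and 10.6 CPM in bulk IL33KO. Bulk WT 3 and 5 lay among the IL33KO libraries (log2 0.64, SE 0.28, adjusted p = 0.724). Without bulk WT 5 the log2 values of Clec4a1 and Clec4a3 were 1.499 and 0.85, and neither passed. Clec4a2 was at 7.35 ± 2.58 CPM in bulk WT and 10.4 ± 1.86 CPM in bulk IL33KO (log2 0.48, SE 0.23, 95% interval -0.02 to 0.98, adjusted p = 0.724). Leukocyte RNA varied alongside: the pan-leukocyte genes, all with log2 differences above 0 (median 0.27) and none called, summed to 615.3, 614.0, 1073.5, 614.8 and 1379.7 CPM in bulk WT and 966.4, 956.9, 722.9, 1042.4 and 1445.7 CPM in bulk IL33KO, with all 10 genes present in every library. With a pan-leukocyte covariate, the mean log2 level of those genes, the log2 differences were 0.90 for Clec4a1, 0.47 for Clec4a3 and 0.33 for Clec4a2, and none passed.

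Clec11a was higher than the WT median in 5 of 5 bulk IL33KO libraries (log2 0.89, SE 0.29, 95% interval 0.25 to 1.53, unadjusted p = 0.0110, edgeR adjusted p = 0.724). Clec3b was at 3.67, 4.10, 0.966, 2.06 and 0.895 CPM in bulk IL33KO, against 0.0991 to 0.402 CPM in bulk WT 1 to 4 and 2.14 CPM in bulk WT 5 (log2 1.88, SE 0.81, 95% interval 0.08 to 3.67, adjusted p = 0.724). Without bulk WT 5 the Clec3b value was 3.26 (adjusted p = 0.0622). The 8 fibroblast genes, none at 0, summed to 909.6 to 2117.0 CPM in bulk WT and 1241.2 to 4660.2 CPM in bulk IL33KO, all with log2 differences above 0 (median 0.94) and none called. Their part in the values of Clec11a and Clec3b was not tested.

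Limma voom with sample quality weights gave another picture in bulk tumour. It called 13 members higher and 1, Clec2f, lower in IL33KO, while calling 11.1% of all genes higher and 8.39% lower. The 13, named by that call after their values were seen, were Clec11a, Clec12a, Clec14a, Clec1a, Clec1b, Clec2i, Clec3b, Clec4a1, Clec4a2, Clec4a3, Clec4d, Clec4n and Clec7a. That fit gives single libraries unequal weight. Leaving out bulk WT 5, the library rich in acinar RNA, in edgeR called 0 members and 19 of 17324 genes (0.11%; 4349 at an unadjusted p below 0.05), with adjusted p of 0.0831 for Clec4a1, 0.0919 for Clec4a2 and 0.0937 for Clec7a. The named receptors without a call in edgeR were Clec7a (log2 0.26, 95% interval -0.61 to 1.14), Clec4n (0.17, -0.42 to 0.76), Clec12a (0.64, -0.211 to 1.501), Clec4d (0.03, -0.90 to 0.96), Clec4e (0.00, -0.73 to 0.73) and Clec5a (-0.06, -0.60 to 0.48). Without bulk WT 5 the log2 values were 0.85 for Clec7a, 0.52 for Clec4n, 0.99 for Clec12a, 0.49 for Clec4d, 0.29 for Clec4e and 0.23 for Clec5a, and none passed. For Clec4d the value was -0.33 with that pan-leukocyte covariate.

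**Figure D4:**
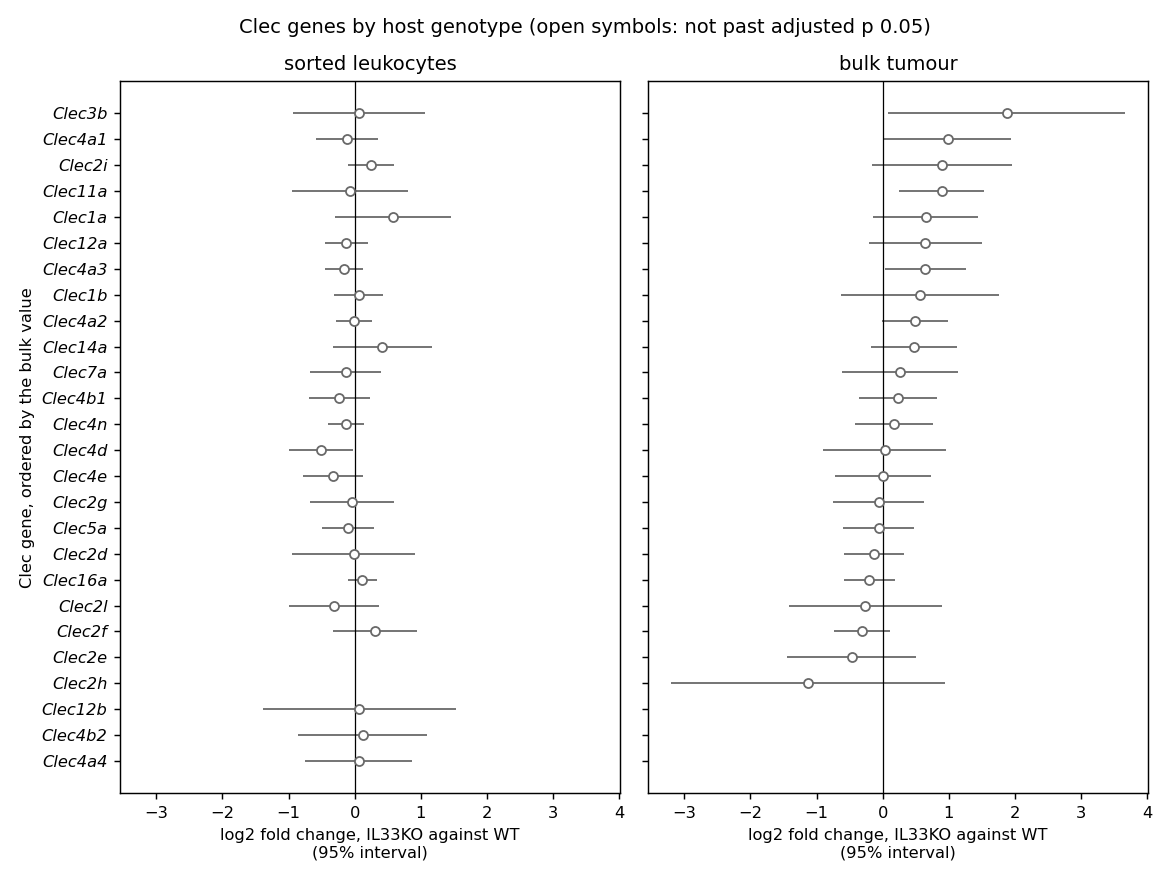
Log2 fold change of IL33KO against WT with its 95% interval for each Clec gene tested, in sorted leukocytes (left) and bulk tumour (right), with genes ordered by the bulk value. All points are open, since none passed the adjusted p threshold in edgeR; the sorted values lie between -0.51 and 0.58, and the bulk values between -1.13 and 1.88.

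The test of whether the genotype difference itself differed between sorted leukocytes and bulk tumour called 0 of 27 members in edgeR and DESeq2. These called 0 of 18145 genes (0.0%) and 4 genes (0.022%). By unadjusted p below 0.05, edgeR had 2 members beside 11.2% of all genes. Clec4a3 had the smallest p (log2 -0.82, SE 0.31, 95% interval -1.47 to -0.17, unadjusted p = 0.0157, edgeR adjusted p = 0.445), followed by Clec4a1 (log2 -1.12, SE 0.50, unadjusted p = 0.0376, adjusted p = 0.445), Clec4a2 (-0.52, adjusted p = 0.456), Clec11a (-0.98, 0.458) and Clec3b (-1.84, 0.461). A negative value means that IL33KO stood lower relative to WT in sorted cells than in bulk. Among members, 22 values were below 0 and 5 above, with a median of -0.43 (-0.01 over all genes, of which 48.8% were above 0). Leukocyte lists moved as well, with none of their genes called. The pan-leukocyte list had 9 of 10 values below 0 (median -0.35) and the macrophage list 10 of 10 (median -0.63). The neutrophil list had 9 of 10 above 0 (median 0.50). The part of these lists in the members' values was not tested. Limma voom with sample quality weights called 11 members lower (10.3% of all genes). The receptors Clec7a (-0.43), Clec4n (-0.32), Clec4d (-0.56), Clec4e (-0.35), Clec12a (-0.80) and Clec5a (-0.07) had intervals that included 0.

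The adaptors and signalling proteins of the activating receptors were read in the same fits. In the sorted against bulk comparison 11 of 12 ITAM adaptor and Syk-Card9 genes were higher and 1, Src, lower in both host genotypes. Beside this and the counts below, 33.7% of all 18145 genes were called higher and 34.3% lower in WT hosts. The shares were 31.3% and 31.7% in IL33KO hosts. Fcer1g was at 955 ± 85.5 CPM in sorted and 74.8 ± 39.9 CPM in bulk WT (log2 3.68), Tyrobp at 873 ± 109 and 72.5 ± 34.7 CPM (3.60), Syk at 397 ± 69.2 and 38.8 ± 10.1 CPM (3.37) and Card9 at 31.9 ± 7.70 and 4.04 ± 2.12 CPM (2.99). Of the 3 phosphatase genes that serve ITIM receptors, Ptpn6 and Inpp5d were higher and Ptpn11 lower in sorted cells of both host genotypes. Of 10 response genes known to be induced through Syk and Card9, 10 were higher in WT and 8 in IL33KO hosts, with Cxcl2 at log2 7.02 and Il1b at 6.16 in WT. Of 9 tested genes for proteins that bind Clec members, 5 were higher and 2 lower in WT and 4 higher and 2 lower in IL33KO hosts. Sap130 (log2 0.01) and Lgals9 (-0.16) did not pass in WT hosts, and Pdpn, the ligand of Clec1b, was higher there (log2 1.05, adjusted p = 0.0433) but not past the threshold in IL33KO hosts (log2 0.03).

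In the genotype comparisons none of these lists had a member past the threshold. In sorted leukocytes 10 of 12 ITAM and Syk-Card9 genes and 9 of 10 response genes had negative values, with medians of -0.12 and -0.26. Over all genes tested there, 53.7% of values were above 0, with a median of 0.02. Fcer1g was at 955 ± 85.5 CPM in sorted WT and 724 ± 125 CPM in sorted IL33KO (log2 -0.38, SE 0.13, edgeR adjusted p = 0.268), Tyrobp differed by -0.27 (adjusted p = 0.385), Card9 by -0.33 (0.454) and Syk by -0.12 (0.747). The 10 macrophage genes, none at 0 CPM, all had negative values as well (median -0.34). They summed to 18992.8 to 21685.5 CPM in sorted WT and 11337.1 to 17444.9 CPM in sorted IL33KO, without overlap. Such a sum is weighted towards the most abundant genes. Other myeloid lists differed: all 8 monocyte genes were above 0 (median 0.11), and 4 neutrophil genes were above and 6 below 0 (median -0.16). The part of these lists in the values of Clec4d, Fcer1g and the other receptor genes was not tested. In bulk tumour the ITAM and Syk-Card9 list had a median of 0.16, with 9 of 12 values above 0 (51.2% of all genes), beside a median of 0.23 for the macrophage list and 0.27 for the pan-leukocyte list.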

How the data were processed

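RNA was measured by stranded poly(A) RNA-seq in 20 libraries (5 in each of 4 groups), grouped by the labels. The authors deposited a table of read counts per gene, made with HTSeq on mm10, and a table of signal values in which the counts are divided by DESeq size factors. Picard, HTSeq, DESeq and mm10 are named per the submitters' processing notes, while for the aligner and strand setting the entry is: not given in the sources used here. HTSeq's summary lines (26.1% to 40.5% of reads) were left out.

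Counts were fitted with edgeR 4.0.16 (R 4.3.3; TMM, filterByExpr, quasi-likelihood test with Benjamini-Hochberg adjustment over all genes tested, threshold 0.05). The genotype comparisons used the 10 libraries of that compartment, and the sorted against bulk comparisons and the interaction used all 20. Alternatives were DESeq2 1.42.0, limma 3.58.1 (voom with sample quality weights, and log2(value + 1) of the deposited signal), other size factors and filters, covariates, a replicate block and the omission of libraries. For sorted against bulk and the interaction, the omission of both sorted libraries numbered 3 was chosen after seeing the data. The code was tested on simulated data. The members and gene lists were chosen with earlier results of these data known.

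In sorted against bulk any member could be named. In the genotype comparisons and the interaction, 6 receptors (Clec7a, Clec4n, Clec4d, Clec4e, Clec5a and Clec12a) and the 5 other members with the smallest p were named. Genes of the lists were named past the threshold, as were Fcer1g, Syk, Card9, Tyrobp, Lgals9, Sap130, Pdpn and Il33. Levels are TMM-scaled CPM. Each library counted as 1 sample. Replicates differed by more than sampling noise (lowest chi-square per gene 19.6), which does not show that they come from separate mice.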

Additional observations from a re-analysis of the deposited data

Results flagged for a closer look

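In 11 of 94 member and group pairs 1 library stood apart from the other 4 by Dixon's criterion (gap over range above 0.71), where chance flags about 1 in 20. Sorted WT 3 was high for Clec7a (1660.0 CPM against 711 to 857 CPM) and Clec1a (1.76 CPM against 0.705 to 0.872 CPM), and low for Clec2d (18.5 CPM against 58.3 to 68.5 CPM). Sorted IL33KO 3 was also low for Clec2d (15.9 CPM against 59.0 to 68.4 CPM). Sorted WT 4 was low for Clec4d (93.6 CPM against 144 to 158 CPM), and sorted WT 1 was low for Clec2f (0.63 CPM against 1.68 to 2.17 CPM).

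Bulk WT 5 was low for Clec2e (0.115 CPM against 0.374 to 0.581 CPM) and Clec2h (0 CPM against 0.493 to 1.16 CPM), and high for Clec2l (0.602 CPM against 0.0991 to 0.143 CPM). Bulk IL33KO 2 was low for Clec2g (0.225 CPM against 0.353 to 0.413 CPM), and bulk IL33KO 5 was high for Clec4n (67.6 CPM against 49.2 to 51.5 CPM).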

How the results depend on the processing

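No setting called a member between genotypes in sorted leukocytes. Limma voom with sample quality weights called 14 members in bulk tumour and 11 in the interaction, where all other settings called 0, and the cause was not tested. Sorted against bulk, the settings that tested 27 members called 20 to 24 in WT hosts (64.3% to 79.6% of all genes) and 20 to 23 in IL33KO hosts (58.8% to 70.8%). The stricter filter called 15 and 16 of the 20 members it tested (73.0% and 67.4% of all genes), and no filter 20 and 21 of 30 (45.9% and 42.4%). Fits of 1 host genotype called 18 of 25 in WT (65.8% of all genes) and 19 of 23 in IL33KO hosts (64.2%). In WT hosts Clec11a and Clec14a passed with DESeq2 (adjusted p = 0.0368 and 0.0384), and Clec2h and Clec16a with voom (0.00652 and 0.000764), as did Clec1a in IL33KO hosts (0.0231). For Clec2h, here and with the block below, the limit given above holds: it passed the low-count filter through its bulk libraries. Over all genes the genotype calls depended on the tool: in sorted leukocytes 1 higher and 1 lower with edgeR, 172 and 394 with DESeq2, and 186 and 207 with voom. In bulk tumour they were 0 and 0, 20 and 30, and 1916 and 1448, and in the interaction 0 and 0, 3 and 1, and 1542 and 1864.

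Uncalled values changed sign, with causes not tested. In sorted leukocytes Clec7a was 0.074 with voom, 0.013 without both libraries numbered 3, and -0.25 to 0.12 when single libraries were left out. In bulk tumour Clec4d was -0.33 with the pan-leukocyte covariate and -0.21 to 0.49 without single libraries. Clec4e there was 0.0051 with the stricter filter, 0.43 with voom, 0.0078 with the scaled table, 0.014 with all 20 libraries, 0.26 with the neutrophil covariate and -0.17 to 0.29 without single libraries. Clec5a was 0.26, 0.0019 and 0.17 with voom, the scaled table and the neutrophil covariate, and -0.18 to 0.23 without single libraries. Clec16a, sorted against bulk in IL33KO hosts, was -0.074 with voom and -0.013 to 0.15 without single libraries, and the Clec5a interaction was -0.36 to 0.054 without single libraries.

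Each gene's log2 CPM was set against its group mean, and these deviations were correlated between same-numbered libraries of different groups. The correlations ran from -0.26 to 0.59, highest between bulk WT 5 and bulk IL33KO 5. The labels do not say whether the numbers pair libraries. With the replicate number as a block, 0 members were called in both genotype comparisons and in the interaction. Over all genes, 1 of 16731 was called in sorted leukocytes, 0 of 17258 in bulk tumour and 0 of 18145 in the interaction. Genes at an edgeR unadjusted p below 0.05 went from 2156 to 2597 in sorted leukocytes and from 1098 to 2681 in bulk tumour. Sorted against bulk, the block called 22 members in each host genotype. Over all 18145 genes it called 5922 higher and 5941 lower in WT hosts, and 5411 and 5411 in IL33KO hosts. In WT hosts the block gained Clec3b and Clec2h (adjusted p = 0.00753 and 0.0237) and lost Clec1a (0.0619), while Clec4e and Clec5a in bulk tumour were at 0.016 and 0.0041. At these depths, 3 counts equal at most 0.0677 CPM, and the size of a fold is not determined for members with bulk or sorted libraries near that level.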
